A study of Mus musculus with 6 samples.

Results

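The 29 genes described here encode the nuclear receptor PPARA, the enzymes of mitochondrial and peroxisomal fatty acid oxidation, the ketone body dehydrogenase BDH1 and 4 further known PPARA targets. They were taken by symbol from a table of read counts for 30029 genes, and all 29 were found and passed the filter on low counts. The table held 6 mouse liver libraries from polyadenylated RNA, 3 labelled wild type (WT 1 to WT 3) and 3 labelled Atp7b knockout (KO 1 to KO 3, genotype given as Atp7b-/-). Atp7b encodes the copper-exporting ATPase of hepatocytes, and the study compared the liver transcriptomes of both genotypes. All 6 libraries shared a high-fat diet fed for 24 weeks, and no library from animals on another diet was analysed here. The sources used here give neither the design of the Atp7b allele nor the strain, the sex or the age. Whether each library stands for its own animal is not stated in the labels either, so the p-values reflect variation among these 6 samples, part or all of which may be technical.

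Fatty acids released from fat or taken up with the diet are oxidised in liver mitochondria after their entry through the carnitine shuttle, and the acetyl-CoA formed can leave as ketone bodies. Very long and branched chains are shortened first in peroxisomes by a separate set of enzymes. PPARA, activated by fatty acids and by fibrate drugs, pairs with a retinoid X receptor and raises the transcription of most of these genes, and in rodent liver the peroxisomal enzymes and the Cyp4a hydroxylases are among its most inducible targets. The pair binds a repeat of the letters AGGTCA, 2 copies in the same orientation with 1 base between them.

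Total counts ran from 57886524 to 70965999 per library, and 26 of the 29 genes had a mean of at least 30 CPM (reads scaled to library size, here with edgeR's TMM factors), with no library below 1472 counts for any of them. Atp7b itself was at 17.5, 22.4 and 33.9 CPM in WT 1 to WT 3 and at 25.9, 27.05 and 23.6 CPM in KO 1 to KO 3, a log2 fold change of 0.053 ± 0.23 (SE, edgeR adjusted p = 0.939). The counts therefore give no independent check of the genotype labels, and every direction below is that of the labels. The first principal component (45.7% of the variance over all tested genes) separated the labelled groups, and the second (17.5%) set WT 1 apart from WT 2 and WT 3. For the 29 genes, calls are given with and without WT 1, as are calls in the lists of related genes where they changed. Hepatocyte markers were abundant in every library, their 9 genes summing to 43840 to 55140 CPM in WT 1 to WT 3 and 50360 to 61140 CPM in KO 1 to KO 3. Such a sum follows its most abundant genes and not the direction of most of them. Only 2 of the 9 had a log2 fold change above 0, and edgeR called none. The labelled groups did not overlap for 1 marker in each direction, against 2410 higher and 2121 lower of 17606 tested genes.

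Across all genes 253 of 17606 (1.44%) were called by edgeR's quasi-likelihood test at an adjusted p under 0.05. None of the 29 genes was called, and none had an unadjusted p under 0.05, which 19.7% of all tested genes had. The smallest adjusted p among them was 0.262, for Pdk4, the kinase that inhibits the pyruvate dehydrogenase complex. DESeq2 and limma voom also called none of them, with 5 and 3 at an unadjusted p under 0.05, against 21% and 19.3% of all tested genes. The estimated log2 fold change was above 0 for 23 of the 29 genes and below 0 for 6, against 48% above 0 over all tested genes. Their median was 0.27, a 1.2-fold difference, against a median of -0.018 over all tested genes. The 18 enzymes and carriers of the mitochondrion had a median of 0.17, with 13 above 0 and 5 below. The 5 peroxisomal genes had a median of 0.72 and were all above 0. ECI2, which is known from both compartments, was counted with neither.

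The size of the intervals differed between genes. All 29 of the 95% intervals of the fold change included 0, and 21 lay wholly within a 2-fold difference in either direction, among them all 4 acyl-CoA dehydrogenases and all 4 genes of the hydratase, dehydrogenase and thiolase steps. The other 8 intervals reached past 2-fold, those of Cpt1b, Ehhadh, Acaa1b, Pex11a, Pdk4, Fgf21, Vnn1 and Angptl4. For 28 of the 29 genes the range of levels within at least 1 labelled group was wider than the fold change between the groups. The same held for 12820 of all 17606 tested genes. Only Cpt1a had every library labelled knockout above every library labelled wild type (1 of 29 genes, against 13.7% of all tested genes), and none had the reverse.

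The 29 genes varied together between libraries that carry the same label. WT 1 was the highest of the libraries labelled wild type for 27 of the 29 genes, which was so for 38.6% of all tested genes. KO 2 was the highest of those labelled knockout for 26 genes (33.6% of all tested genes), and KO 3 was the lowest for 25 (31.9%). KO 2 was the highest of all 6 libraries for 20 genes and WT 1 for 6, while WT 2 or WT 3 was the lowest of the 6 for 19. WT 1 stood above KO 3 for 26 genes. The highest level exceeded the lowest by a median of 1.54-fold within the libraries labelled wild type and 1.53-fold within those labelled knockout, against 1.31-fold and 1.35-fold over all tested genes. For 6 genes (Cpt1b, Ehhadh, Pex11a, Pdk4, Fgf21 and Vnn1) the libraries labelled wild type differed by more than 2-fold. The order of the libraries labelled knockout was not particular to the 29 genes. In lists of 23 other mitochondrial oxidation genes and 23 other peroxisomal genes, described below, KO 2 was the highest of them for 20 genes in each. KO 3 was the lowest of them for 15 and 16 genes of these lists. WT 1 was the highest library labelled wild type for 11 and 10. What set WT 1 and KO 2 apart was not tested.

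**Figure D1:**
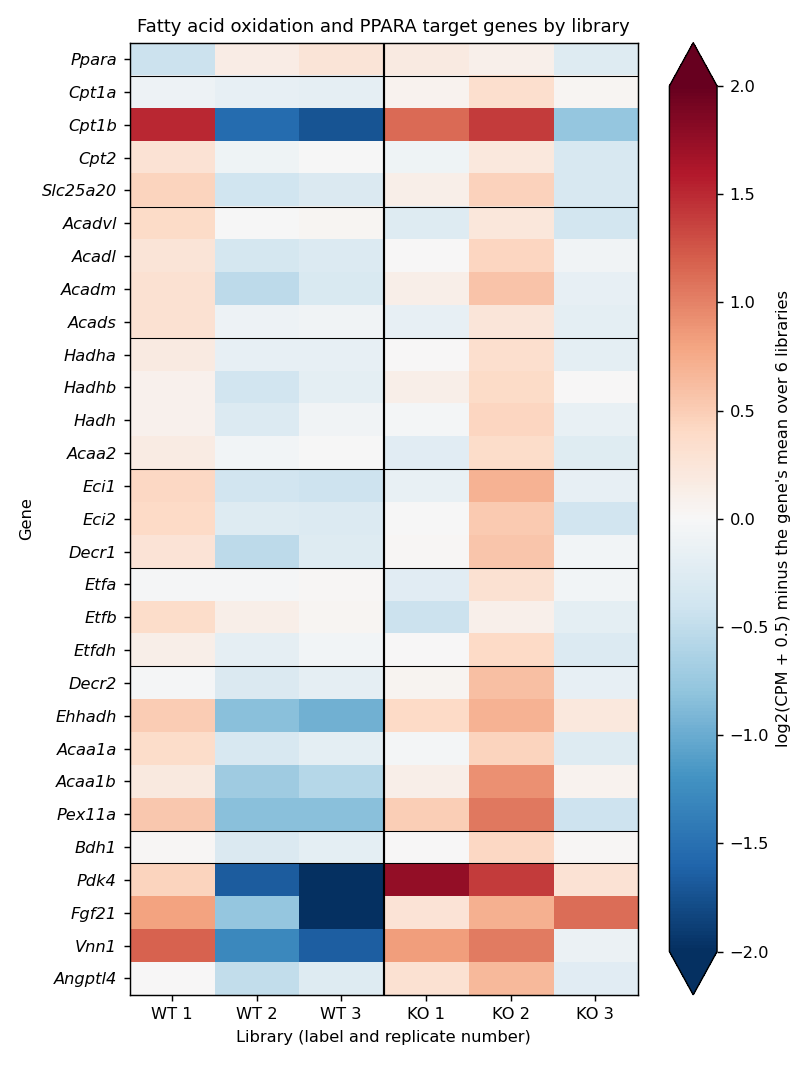
Each row is 1 of the 29 genes and each column 1 of the 6 libraries, with the colour giving log2(CPM + 0.5) minus the gene's mean over the libraries and thin lines parting the functional groups. Columns WT 1 and KO 2 are red in most rows, WT 2 and WT 3 are blue in most rows, and the rows of Cpt1b, Pdk4, Fgf21 and Vnn1 have the strongest colours.

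Ppara, the receptor gene itself (chr15:85619184-85687020, as deposited, GRCm39 per the submitters' processing notes, as are all gene positions below), was expressed at 42.8, 64.6 and 69.2 CPM in WT 1 to WT 3 and 65.7, 62.5 and 48.1 CPM in KO 1 to KO 3. The groups overlapped, with group levels of 58.9 ± 14.1 and 58.8 ± 9.35 CPM (mean ± SD, n = 3 each), and the log2 fold change was -0.0024 ± 0.20 (SE, edgeR adjusted p = 0.998). WT 1, the library labelled wild type with the highest levels of most of the other 28 genes, had the lowest level of Ppara. Its partners and coregulators were taken from a list of 19 further genes. Of these edgeR and limma voom called none and DESeq2, which called 10.6% of all tested genes, called 1 (Rxrg, lower). By edgeR 3 of the 19 had an unadjusted p under 0.05, against 19.7% of all tested genes. Of the 19 log2 fold changes 7 were above 0 and 12 below, with a median of -0.054. The 4 with the smallest p were Rxrg, Pparg, Ncoa1 and Rxra. Rxra, the main retinoid X receptor of hepatocytes, was at 406, 511 and 487 CPM in WT 1 to WT 3 and 373, 387 and 296 CPM in KO 1 to KO 3, and the libraries labelled knockout were all below the others (log2 fold change -0.41 ± 0.18 SE, edgeR adjusted p = 0.263). Pparg, the receptor known for adipocytes that is also found in fatty liver, was at 19.4, 8.82 and 10.3 CPM in WT 1 to WT 3 and 27.4, 24.5 and 17.9 CPM in KO 1 to KO 3, with overlapping groups and a log2 fold change of 0.86 ± 0.31 (SE, edgeR adjusted p = 0.181). Rxrg was lower in all libraries labelled knockout (log2 fold change -0.85, edgeR adjusted p = 0.113), and for Ncoa1, a coactivator, the value was -0.37 (edgeR adjusted p = 0.227). Without WT 1 edgeR called 2 of the 19 genes higher, against 1.48% of all genes tested in that fit. These were Pparg at 2.43-fold (edgeR adjusted p = 0.04) and Foxa2 at 1.65-fold (edgeR adjusted p = 0.0457).

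Promoter sequence is shown for the members with a match to the PPARA repeat near their start. RefSeq promoters (GRCm38.p6), each with 250 bases before and 50 after a gene's start, were found for 24 of the 29 genes, 25 promoters in all. Both strands were searched for the repeat, and up to 2 of its 12 defined positions were allowed to differ. Such a match stood in 2 of the 25 promoters (8%), those of Etfa and Slc25a20, and in 1268 of 32851 promoters of all genes (3.86%). The match of Etfa lies on the strand opposite to the gene and that of Slc25a20 begins at base 7 of the transcript, where only the 13 bases of the site are shown. In both, capitals mark the 2 copies of the half-site as they read in the direction of the gene.
Etfa upstream window, chr9:55512278-55512350 (minus strand): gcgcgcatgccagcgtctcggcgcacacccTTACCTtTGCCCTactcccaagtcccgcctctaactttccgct
Slc25a20 site, chr9:108662142-108662154 (plus strand): AGGTGAaAGGTCG
A match describes these letters and not a bound site, and the count table gives no measure of PPARA binding.

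Among the genes of the carnitine shuttle, Cpt1a was the one whose groups did not overlap. It encodes the liver form of carnitine palmitoyltransferase 1 in the outer mitochondrial membrane, the step that malonyl-CoA inhibits (chr19:3372334-3435733). Levels were 434, 414 and 412 CPM in WT 1 to WT 3 and 488, 592 and 482 CPM in KO 1 to KO 3. All 3 libraries labelled knockout were above all 3 labelled wild type, by group means of 420.1 ± 12.5 and 521 ± 61.7 CPM (mean ± SD, n = 3 each), yet the log2 fold change of 0.31 ± 0.16 (SE) was not called (edgeR adjusted p = 0.353). Cpt1b, the muscle form, was scarce at 9.09, 0.657 and 0.512 CPM in WT 1 to WT 3 and 6.89, 8.42 and 1.47 CPM in KO 1 to KO 3. Its 3 high libraries were WT 1, KO 1 and KO 2, which left a log2 fold change of 0.71 ± 1.21 (SE) with an interval of -2.21 to 3.63 (edgeR adjusted p = 0.813). The whole span of Cpt1b, 9459 bases, lies within a predicted gene on the same strand, Gm44502, and since the counting rule was not given in the sources used here, reads could have been split between them. Gm44502 was at 1.08, 14.0 and 8.40 CPM in WT 1 to WT 3 and 7.02, 2.81 and 7.59 CPM in KO 1 to KO 3. It was lowest in WT 1 and KO 2, the libraries where Cpt1b was highest. All 8 skeletal or cardiac muscle markers stayed below 1 CPM in every library, 1 of them at 0.

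Cpt2, the enzyme of the inner membrane that reforms acyl-CoA, was at 213, 164 and 172 CPM in WT 1 to WT 3 and 164, 201 and 138 CPM in KO 1 to KO 3. Slc25a20, the carrier that exchanges acylcarnitine for carnitine and the gene with the repeat-like site in its transcript, was at 152, 84.7 and 92.2 CPM in WT 1 to WT 3 and 122, 154 and 89.5 CPM in KO 1 to KO 3. For both, the highest library labelled wild type was WT 1, the highest labelled knockout was KO 2, and the groups overlapped. Their log2 fold changes were -0.13 ± 0.19 (SE) for Cpt2 and 0.15 ± 0.27 (SE) for Slc25a20 (edgeR adjusted p = 0.778 and 0.824).

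The acyl-CoA dehydrogenases, which take the first oxidative step for chains of different length, differed in the sign of their fold changes. Acadvl, for very long chains (chr11:69901009-69906237), was at 567, 429 and 444 CPM in WT 1 to WT 3 and 362, 504 and 334 CPM in KO 1 to KO 3, with 2 of the 3 libraries labelled knockout below all 3 labelled wild type. Its log2 fold change was -0.26 ± 0.22 (SE, edgeR adjusted p = 0.565). Dvl2 on the opposite strand overlaps 2119 bases of Acadvl and had 4365 counts over the 6 libraries. Acadm, for medium chains (chr3:153627994-153650269), was at 441, 248 and 288 CPM in WT 1 to WT 3 and 386, 527 and 319 CPM in KO 1 to KO 3. There the order was KO 2, WT 1, KO 1, KO 3, WT 3 and WT 2, and the log2 fold change was 0.33 ± 0.27 (SE, edgeR adjusted p = 0.560). Acadl, for long chains, followed that pattern at 219.8, 143 and 150.4 CPM in WT 1 to WT 3 and 183, 247 and 175 CPM in KO 1 to KO 3 (log2 fold change 0.24 ± 0.22 SE, edgeR adjusted p = 0.615). Acads, for short chains, was within 195 to 276 CPM in all 6 libraries, with a log2 fold change of -0.083 ± 0.19 (SE, edgeR adjusted p = 0.866). The negative values of Acadvl and Acads, like those of Cpt2, Acaa2 and Ppara, turned positive when libraries were scaled by total counts. That scaling raised the median over all tested genes from -0.018 to 0.31, and 4 of the 5 genes stayed below that shifted median, with Ppara level with it at 0.31.

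The mitochondrial trifunctional protein catalyses the next 3 steps for long chains. Its alpha and beta subunits are encoded by Hadha and Hadhb, a pair shown here because both genes share a promoter region. The genes point away from each other, and their RefSeq starts (GRCm38.p6) lie 273 bases apart. The 85 bases that lie outside both genes in RefSeq and in GENCODE vM21 hold 69.4% G and C and 9 CpG dinucleotides, and the closest match to the PPARA repeat within them differs at 4 positions. No letters are capitalised in this stretch.
Hadha and Hadhb intergenic region, chr5:30155163-30155247 (plus strand): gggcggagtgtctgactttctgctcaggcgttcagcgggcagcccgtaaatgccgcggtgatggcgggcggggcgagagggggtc
Hadha was at 362, 284 and 287 CPM in WT 1 to WT 3 and 323, 403 and 278 CPM in KO 1 to KO 3, with overlapping groups (log2 fold change 0.11 ± 0.19 SE, edgeR adjusted p = 0.825). Hadhb was at 207, 149.7 and 171 CPM in WT 1 to WT 3 and 213, 255 and 196 CPM in KO 1 to KO 3, with only WT 1 reaching into the range of the libraries labelled knockout (log2 fold change 0.33 ± 0.18 SE, edgeR adjusted p = 0.359). The ratio of Hadhb to Hadha within a library does not depend on how libraries are scaled, and it was 0.573, 0.527 and 0.595 in WT 1 to WT 3 and 0.659, 0.631 and 0.704 in KO 1 to KO 3. The groups did not overlap, with means of 0.565 ± 0.0349 and 0.665 ± 0.0368 (SD, n = 3 each) and a two-sided exact permutation p of 0.1, the smallest that 3 against 3 allows. This ratio and the 5 given below were chosen after levels had been seen, and reads were not assigned to transcripts, so a ratio describes reads per gene. Hadh, the short-chain hydroxyacyl-CoA dehydrogenase, ranged from 261 to 425 CPM over the 6 libraries and Acaa2, the mitochondrial thiolase, from 719 to 1104 CPM. Their log2 fold changes were 0.18 ± 0.20 (SE) for Hadh and -0.041 ± 0.22 (SE) for Acaa2 (edgeR adjusted p = 0.687 and 0.955). Acaa2 was the most abundant mitochondrial gene of the set per length of its longest transcript, at 576 and 560.5 CPM per kilobase in the libraries labelled wild type and knockout.

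Unsaturated chains need isomerases and a reductase before the spiral can go on. Eci1, a mitochondrial isomerase (chr17:24645615-24658322), was at 151, 87.0 and 84.4 CPM in WT 1 to WT 3 and 102, 185 and 101 CPM in KO 1 to KO 3. The mitochondrial reductase gene Decr1 was at 226, 129.6 and 157 CPM in WT 1 to WT 3 and 189.7, 275 and 181 CPM in KO 1 to KO 3. In both genes the 3 libraries labelled knockout were above WT 2 and WT 3, and WT 1 was above 2 of them. The log2 fold changes were 0.27 ± 0.31 (SE) for Eci1 and 0.33 ± 0.25 (SE) for Decr1 (edgeR adjusted p = 0.713 and 0.523). Eci2, the isomerase of both compartments, ranged from 180.3 to 341 CPM with a log2 fold change of 0.10 ± 0.28 (SE, edgeR adjusted p = 0.893).

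Electrons from the dehydrogenases pass through the electron transfer flavoprotein, a dimer of ETFA and ETFB, to its dehydrogenase ETFDH in the inner membrane. Etfb (chr7:43093507-43107224) was at 299, 250.4 and 236 CPM in WT 1 to WT 3 and 172, 248 and 201 CPM in KO 1 to KO 3. It had the most negative log2 fold change of the 29 genes, -0.34 ± 0.18 (SE), and was the only one below 0 under total-count scaling as well (edgeR adjusted p = 0.364). Etfa, the gene with the upstream window shown above, was at 235, 236 and 242 CPM in WT 1 to WT 3 and 205, 294 and 230.3 CPM in KO 1 to KO 3. WT 1 to WT 3 differed by little for Etfa, which together with Ppara was an exception to the high level of WT 1 that most of these genes shared. Within a library the ratio of Etfb to Etfa was 1.27, 1.06 and 0.975 in WT 1 to WT 3 and 0.84, 0.843 and 0.872 in KO 1 to KO 3, lower in all 3 libraries labelled knockout (two-sided exact permutation p = 0.1, the smallest possible). Etfbl, on the same strand, overlaps 13673 bases of Etfb and had 30 counts over the 6 libraries. How reads in the overlap were counted was not given in the sources used here. Etfdh ranged from 167 to 265 CPM, with a log2 fold change of 0.10 ± 0.20 (SE, edgeR adjusted p = 0.834).

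Acaa1b, Ehhadh and Pex11a, 3 of the 5 peroxisomal members, had log2 fold changes from 0.72 to 0.73, none of them called. Acaa1b, a peroxisomal thiolase (chr9:118977091-118986161), was at 1439, 767 and 845 CPM in WT 1 to WT 3 and 1361, 2374 and 1328 CPM in KO 1 to KO 3. Only WT 1 overlapped the libraries labelled knockout, and the log2 fold change was 0.73 ± 0.33 (SE), a 1.66-fold difference that was not called (edgeR adjusted p = 0.272). Ehhadh, the bifunctional enzyme of the hydratase and dehydrogenase steps (chr16:21580037-21606557), was at 455, 179 and 164 CPM in WT 1 to WT 3 and 423, 521 and 372 CPM in KO 1 to KO 3. WT 1 was in the range of the libraries labelled knockout while WT 2 and WT 3 were below all of them, and the log2 fold change was 0.72 ± 0.39 (SE, edgeR adjusted p = 0.368). Pex11a, which encodes a membrane protein of peroxisome elongation (chr7:79385705-79392879), was at 146, 56.1 and 56.2 CPM in WT 1 to WT 3 and 142, 211 and 75.6 CPM in KO 1 to KO 3. Again WT 1 was above KO 1 and KO 3, and the log2 fold change was 0.73 ± 0.51 (SE, edgeR adjusted p = 0.50).

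The remaining peroxisomal members differed less. Decr2, the peroxisomal reductase, was at 173, 144 and 156 CPM in WT 1 to WT 3 and 183, 267 and 156 CPM in KO 1 to KO 3 (log2 fold change 0.36 ± 0.21 SE, edgeR adjusted p = 0.408). Acaa1a, the paralog of Acaa1b, was at 436, 269 and 294 CPM in WT 1 to WT 3 and 329, 456 and 281 CPM in KO 1 to KO 3. The groups of Acaa1a overlapped, and its log2 fold change was 0.095 ± 0.25 (SE, edgeR adjusted p = 0.889). Of the 50-base windows of the longest transcript, 35.5% for Acaa1b and 15.6% for Acaa1a also occur in a transcript of the other gene, so reads could have been exchanged or dropped by the counting. The ratio of Acaa1b to Acaa1a was 3.3, 2.86 and 2.87 in WT 1 to WT 3 and 4.13, 5.2 and 4.72 in KO 1 to KO 3, with no overlap (two-sided exact permutation p = 0.1, the smallest possible). Windows shared by both genes bear on this ratio, and their part in it was not tested. Part of Acaa1a, 366 bases, also overlaps Myd88 on the opposite strand, and whether counting used strand was not given in the sources used here.

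The mitochondrial and peroxisomal members were also summed within each library. The 18 mitochondrial genes summed to 5554, 4284 and 4512 CPM in WT 1 to WT 3 and to 4600, 6283 and 4344 CPM in KO 1 to KO 3. KO 2 had the highest sum, and the other 2 libraries labelled knockout were within the range of those labelled wild type. The 5 peroxisomal genes summed to 2650, 1415 and 1516 CPM and to 2438, 3829 and 2213 CPM in the same order. Here WT 1 was again within the range of the libraries labelled knockout, while WT 2 and WT 3 were below it. The peroxisomal sum divided by the mitochondrial sum was 0.477, 0.33 and 0.336 in WT 1 to WT 3 and 0.53, 0.609 and 0.51 in KO 1 to KO 3. Every library labelled knockout had the higher ratio, with means of 0.381 ± 0.0832 and 0.55 ± 0.0527 (SD, n = 3 each, two-sided exact permutation p = 0.1, the smallest possible). Acaa1b made up most of the peroxisomal sum, and without it the ratios were 0.218, 0.151 and 0.149 against 0.234, 0.231 and 0.204, which overlapped (two-sided exact permutation p = 0.2). Ehhadh set against Acadm, 1 gene from each compartment, gave 1.03, 0.723 and 0.57 against 1.1, 0.988 and 1.17, which overlapped as well (p = 0.2 by the same exact test). Adjusted over the 6 ratios by the Benjamini-Hochberg method, the exact permutation p was 0.15 for the 4 ratios without overlap and 0.2 for the other 2.

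**Figure D2:**
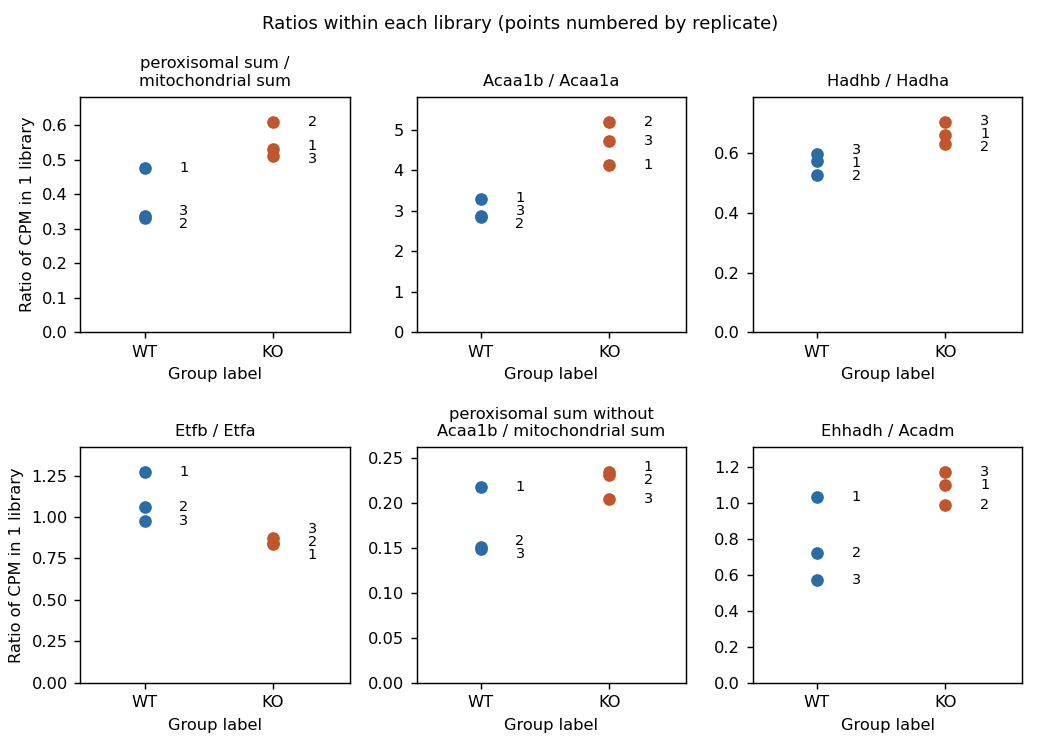
Each point is the ratio of levels within 1 library, numbered by replicate, for all 6 ratios, on axes that start at 0. The labelled groups do not overlap in 4 panels, those labelled knockout being higher in the first 3 and lower for Etfb over Etfa (exact permutation p = 0.1 in each), and they overlap for the peroxisomal sum without Acaa1b and for Ehhadh over Acadm (p = 0.2).

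Bdh1 was the ketone body gene of the set. It encodes the mitochondrial enzyme that interconverts acetoacetate and 3-hydroxybutyrate (chr16:31241098-31277719), and its levels were 253, 202 and 217 CPM in WT 1 to WT 3 and 250.4, 331 and 253 CPM in KO 1 to KO 3. Only WT 1 reached into the range of the libraries labelled knockout, and the log2 fold change was 0.31 ± 0.18 (SE, edgeR adjusted p = 0.385). Of 8 further ketone body genes edgeR and limma voom called none and DESeq2 called Oxct1. By edgeR 1 of the 8 had an unadjusted p under 0.05, against 19.7% of all tested genes. Of the 8 log2 fold changes 6 were above 0, with a median of 0.24. Oxct1, the enzyme that activates acetoacetate for use and that hepatocytes are known to make little of, was at 4.76, 3.96 and 3.47 CPM in WT 1 to WT 3 and 9.21, 6.44 and 13.9 CPM in KO 1 to KO 3. All 3 libraries labelled knockout were above the others, and the log2 fold change was 1.28 ± 0.30 (SE, edgeR adjusted p = 0.0653). Among other fits, edgeR called Oxct1 with total counts (adjusted p = 0.0383) and without KO 2 (adjusted p = 0.0256). With total counts it called 5.34% of all tested genes higher, and without KO 2 it called 4.96% of all genes tested. DESeq2, which called Oxct1 on all 6 libraries, called 10.6% of all tested genes. The values of Oxct1 were low, and which cells its reads came from was not tested. Bdh2, Acat1 and Slc16a6, next by p, had log2 fold changes of 0.35, 0.38 and -0.31, with edgeR adjusted p from 0.411 to 0.589.

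The 4 PPARA targets outside the oxidation enzymes had log2 fold changes above 0, also without an edgeR call. Pdk4 (chr6:5483351-5496309) was at 9.44, 1.82 and 1.07 CPM in WT 1 to WT 3 and 24.2, 18.9 and 8.40 CPM in KO 1 to KO 3. WT 1 was above KO 3, and the 4.18-fold difference, a log2 fold change of 2.06 ± 0.87 (SE), was not called (edgeR adjusted p = 0.262). Angptl4, a secreted inhibitor of lipoprotein lipase (chr17:33992724-34000804), was at 119, 84.0 and 99.1 CPM in WT 1 to WT 3 and 147, 187 and 102 CPM in KO 1 to KO 3, with a log2 fold change of 0.53 ± 0.24 (SE, edgeR adjusted p = 0.266). Vnn1, which encodes a pantetheinase (chr10:23770586-23781241), was at 174, 31.3 and 24.3 CPM in WT 1 to WT 3 and 137, 159 and 71.0 CPM in KO 1 to KO 3. Its level in WT 1 was the highest of all 6 libraries, WT 2 and WT 3 were the lowest, and the log2 fold change was 0.68 ± 0.81 (SE, edgeR adjusted p = 0.725). Fgf21, the gene of a hormone that the liver releases in fasting (chr7:45263310-45264914), was near the lower end of the set at 4.95, 1.33 and 0.215 CPM in WT 1 to WT 3 and 3.28, 4.61 and 6.31 CPM in KO 1 to KO 3. KO 3 was the highest library for Fgf21, unlike for the other genes, and the log2 fold change was 1.13 ± 0.93 (SE, edgeR adjusted p = 0.574).

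**Figure D3:**
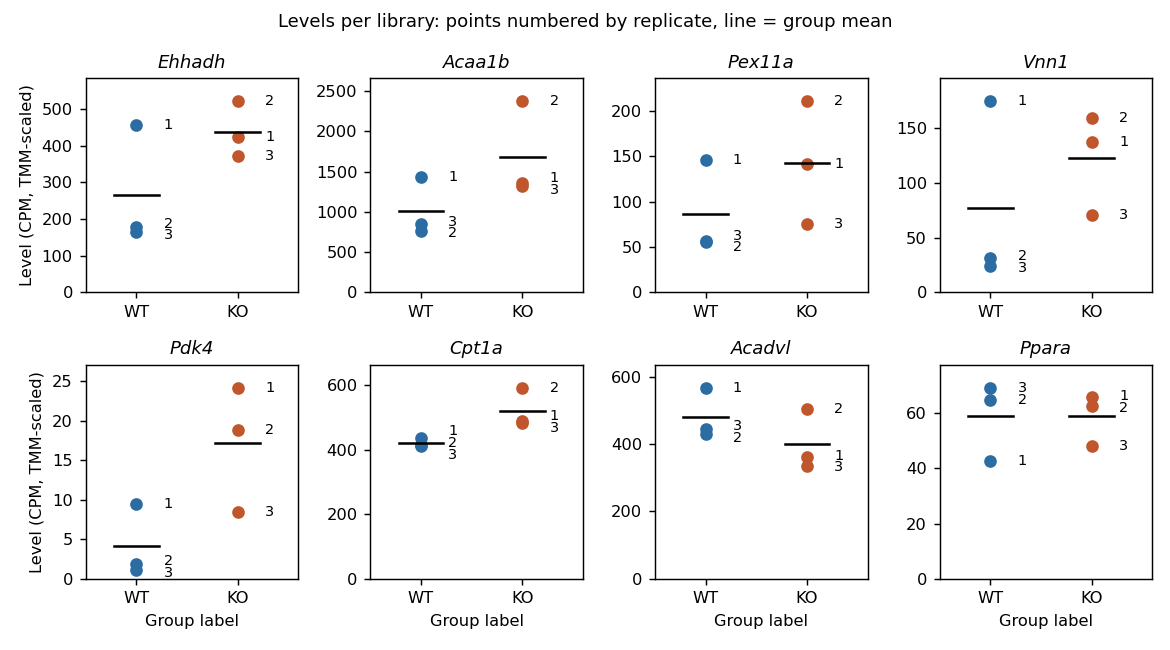
Levels in TMM-scaled CPM of 8 of the genes, with 1 point per library numbered by replicate, lines at the group means and axes that start at 0. For Ehhadh, Acaa1b and Pex11a the point of WT 1 lies among those of the libraries labelled knockout, for Vnn1 it lies above them, WT 2 and WT 3 lie below them in all 4 genes, Cpt1a is the 1 gene without overlap, and Acadvl and Ppara show no separation.

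Leaving out WT 1 changed the count of calls. Then 3 of the 29 genes were called higher in the libraries labelled knockout, against 1.48% of all genes tested called higher without WT 1. These were Ehhadh at 2.55-fold (edgeR adjusted p = 0.0397), Pdk4 at 11.9-fold (0.0416) and Vnn1 at 4.40-fold (0.0471). An unadjusted p under 0.05 was reached by 11 of the 29 genes, all higher, and 11.7% of all genes tested without WT 1 were higher at that p. The log2 fold change of Cpt1b was then 3.26 (edgeR adjusted p = 0.0951), that of Fgf21 2.62 (0.13), that of Pex11a 1.34 (0.156) and that of Acaa1b 1.065 (0.142). The medians became 0.43 for the 29 genes, 0.30 for the mitochondrial and 1.065 for the peroxisomal members. In 16 of the 29 genes all 3 libraries labelled knockout were above both WT 2 and WT 3, which was so for 19.8% of all tested genes. WT 1 was the highest library labelled wild type for 27 of the 29 genes, against 38.6% of all tested genes. Leaving it out therefore raises most of their fold changes by construction. The counts without WT 1 and the shares over all genes are thus not a like comparison, and no conclusion is drawn from them. Leaving out KO 2 instead gave medians of 0.10, -0.018 and 0.37, with 16 of the 29 genes above 0, none called by edgeR (4.96% of all genes tested without KO 2 were called) and 2, both lower, at an unadjusted p under 0.05 (7.59% lower over all genes). The labels give no ground for dropping either library, and both are part of the comparison as made.

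**Figure D4:**
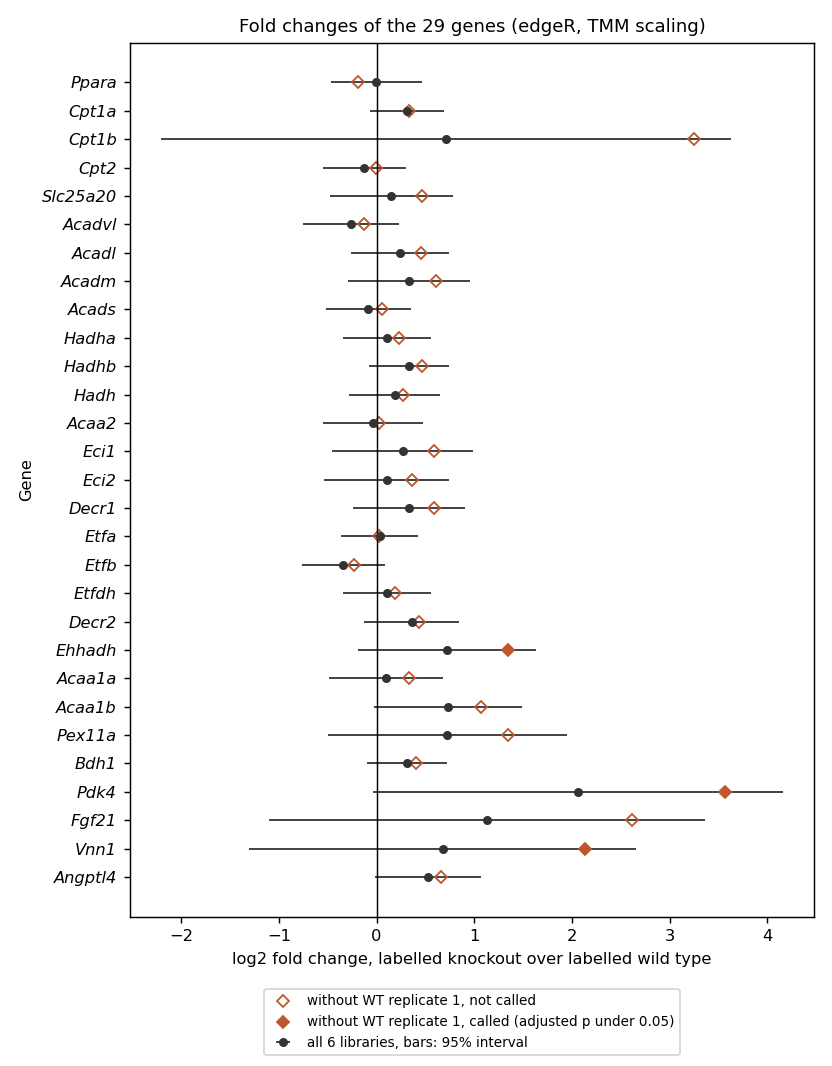
Log2 fold changes of the libraries labelled knockout over those labelled wild type for the 29 genes, with black points and 95% intervals from all 6 libraries and diamonds from the 5 libraries without WT 1. All 29 intervals include 0, the diamonds lie to the right of the points for most genes, and the filled diamonds mark Ehhadh, Pdk4 and Vnn1.

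Scaling moved the calls as well. With libraries scaled by total counts, 28 of the 29 log2 fold changes were above 0 and 4 genes were called higher, against 5.34% of all tested genes called higher under that scaling. The 4 were Cpt1a at 1.54-fold (edgeR adjusted p = 0.0377), Angptl4 at 1.77-fold (0.0438), Bdh1 at 1.54-fold (0.0469) and Hadhb at 1.56-fold (0.0489). The median of the 29 genes was then 0.56 against 0.31 over all tested genes. Among called genes of every kind, 93.3% were higher under total counts and 64.8% with TMM.

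Other genes of the same pathways were read from lists that hold no member. Of 23 further genes of mitochondrial fatty acid oxidation 1 was called, against 1.44% of all tested genes. It was Acad12, an acyl-CoA dehydrogenase family member. Acad12 was at 13.3, 16.6 and 13.2 CPM in WT 1 to WT 3 and 27.7, 24.9 and 30.5 CPM in KO 1 to KO 3, with every library labelled knockout above every other (1.93-fold, edgeR adjusted p = 0.0447). Of the fits without 1 library, the call was lost when WT 2, WT 3, KO 1 or KO 3 was left out, settings that called only 0, 4, 11 and 33 genes over the whole table. The median log2 fold change of the 23 was -0.031, with 10 above 0. Without WT 1 edgeR called Crat higher as well as Acad12 (Crat 2.45-fold, edgeR adjusted p = 0.0463), against 1.48% of all genes tested in that fit. Of 23 further peroxisomal genes edgeR and limma voom called none and DESeq2, which called 10.6% of all tested genes, called Abcd2. With total counts edgeR called Abcd2 too, and 5.34% of all tested genes higher. Without KO 2 it called Abcd2 higher and Hacl1 (log2 fold change -1.06, adjusted p = 0.0364) and Pxmp2 (-0.68, adjusted p = 0.0445) lower. That fit called 4.96% of all genes tested in it. On all 6 libraries by edgeR 5 of the 23 had an unadjusted p under 0.05, against 19.7% of all tested genes. Log2 fold changes were below 0 for 16, with a median of -0.14 where the 5 peroxisomal members had 0.72. Abcd2, a transporter of very long chain acyl-CoA into peroxisomes, was at 3.91, 2.18 and 1.70 CPM in WT 1 to WT 3 and 12.5, 13.7 and 38.9 CPM in KO 1 to KO 3, and its 8.37-fold difference missed the threshold (edgeR adjusted p = 0.0538). Pxmp2, Pecr and Acox3, the next by p, had log2 fold changes of -0.53, -0.54 and -0.40 with adjusted p from 0.147 to 0.175. For these the libraries labelled knockout were all below the others, as for 4 of the 23 genes and 2121 of 17606 tested genes. Under total counts the median of that list was 0.17, below the 0.31 of all tested genes.

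A list of 30 other known PPARA targets, 29 of them tested, repeated the order of the libraries. Neither edgeR nor limma voom called any, 25 had log2 fold changes above 0 with a median of 0.70, and 10 reached an unadjusted p under 0.05 by edgeR, all higher, against 12% of all tested genes higher at that p. WT 1 was the highest of the libraries labelled wild type for 26 of the 29 and KO 2 the highest of those labelled knockout for 20. Cyp4a10 and Cyp4a14, fatty acid omega-hydroxylases often used as readouts of PPARA in rodent liver, summed to 694, 53.9 and 35.7 CPM in WT 1 to WT 3 and to 625, 1381 and 389 CPM in KO 1 to KO 3. Their sum in WT 1 was above that of KO 1 and KO 3, and WT 2 and WT 3 were far below all other libraries. The 4 with the smallest p were Lpin2, Lpl, Acot4 and Ucp2. Lpin2, a phosphatidate phosphatase, was at 200.4, 219 and 227 CPM in WT 1 to WT 3 and 371, 347 and 331 CPM in KO 1 to KO 3 (1.62-fold, edgeR adjusted p = 0.0551). Lpl, lipoprotein lipase, was at 59.4, 27.8 and 25.5 CPM in WT 1 to WT 3 and 119, 97.8 and 232 CPM in KO 1 to KO 3 (3.99-fold, adjusted p = 0.0765). For both, no library labelled knockout overlapped the others, and for Lpin2 WT 1 was the lowest of the 6. Acot4, a peroxisomal thioesterase, and Ucp2, a mitochondrial carrier, differed 2.36-fold and 1.82-fold (adjusted p = 0.105 and 0.107). Without WT 1, 6 were called higher (Acot2, Cd36, Cidec, Cyp4a14, Cyp4a31 and Lpl), against 1.48% of all genes tested in that fit. WT 1 was the highest of those labelled wild type for most of the list, so leaving it out raises most fold changes by construction. The count and the share are thus not a like comparison, and no conclusion is drawn from them. DESeq2 on all 6 libraries called 8, all higher, and called 7.46% of all tested genes higher.

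**Figure D5:**
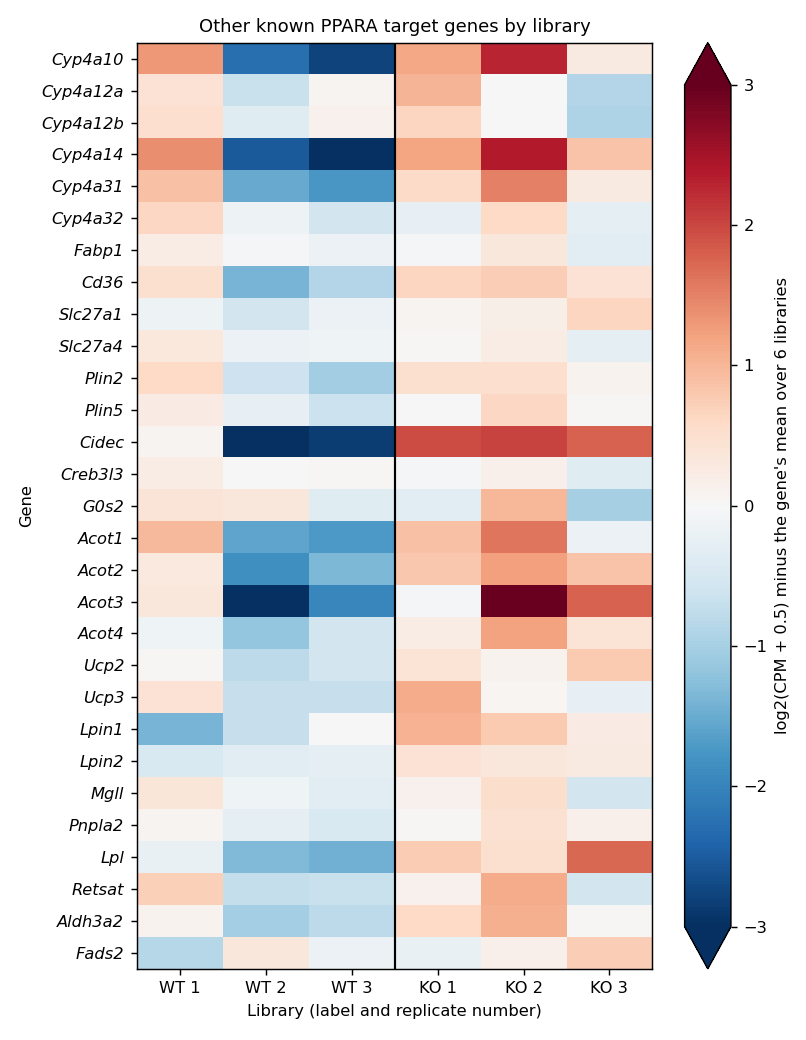
Rows are the 29 tested genes of the list of other PPARA targets, columns the 6 libraries, and the colour log2(CPM + 0.5) minus the gene's mean over the libraries. WT 2 and WT 3 are blue in most rows, WT 1 is red in many rows, and Cyp4a10, Cyp4a14, Cidec and Acot3 have the strongest colours.

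The marker sums of recruited macrophages and of stellate cells or fibroblasts were higher in every library labelled knockout. Those of bile duct, Kupffer and endothelial cells overlapped between the labels. The part of any of these cells in the values above was not tested. All 8 recruited macrophage markers were higher in every library labelled knockout than in any other, and 1 of them was called (Cd68). They summed to 41.1 to 101 CPM in WT 1 to WT 3 and 225 to 456 CPM in KO 1 to KO 3. All 9 markers of stellate cells or fibroblasts had log2 fold changes above 0, 7 of them without overlap, with 1 called (Dcn). Their sums were 225 to 244 CPM and 489 to 922 CPM. Over all tested genes 13.7% were higher without overlap and 1.44% were called in either direction. Bile duct markers summed to 6.05 to 10.9 CPM and 5.19 to 56.2 CPM, highest in KO 3, the library labelled knockout in which 25 of the 29 genes were lowest. Kupffer cell markers summed to 316 to 579 CPM and 200.4 to 472 CPM, and the 5 endothelial markers to 86.1 to 123 CPM and 63.8 to 126 CPM. Of the adipocyte markers 4 of 5 were below 1 CPM in every library, 2 of them at 0. The 1 that was tested, Adrb3, was lower in every library labelled knockout and was not called. All 5 summed to 17.6 to 26.6 CPM in WT 1 to WT 3 and 8.73 to 13.2 CPM in KO 1 to KO 3. That sum was mostly Adrb3 and is not read as a measure of adipocytes. In bulk liver RNA fewer cells of a type and less RNA per cell cannot be told apart.

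Levels per kilobase of the longest transcript placed the members on 1 scale. Acaa1b was the highest at 602 and 999 CPM per kilobase in the libraries labelled wild type and knockout, followed by Acaa2. Etfb was at 293 and 232 CPM per kilobase and Acadvl at 221 and 185 CPM per kilobase, and both had negative log2 fold changes. Acadm was at 159 and 201 CPM per kilobase, Ehhadh at 89.3 and 147 CPM per kilobase and Cpt1a at 97.3 and 121 CPM per kilobase. Ppara itself was at 17.2 and 17.2 CPM per kilobase, and only Cpt1b, Pdk4 and Fgf21 were below it. Those 3 were at 1.18 and 1.93 CPM per kilobase for Cpt1b, 1.18 and 4.92 CPM per kilobase for Pdk4 and 2.28 and 4.98 CPM per kilobase for Fgf21, and they had the 3 largest standard errors of the set.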

How the data were processed

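The authors deposited raw whole-number read counts per gene, 1 unpooled column per library. GRCm39 and edgeR are named in the submitters' processing notes. The sources used here do not give the aligner, the counting program, the annotation or the use of strand. Per the labels' protocols, the libraries were poly(A)-selected and marked strand with dUTP. Groups and replicate numbers came from the sample titles.

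Genes were kept by filterByExpr (17606 of 30029), scaled with TMM factors (trimmed mean of M-values) and tested with edgeR's robust quasi-likelihood F test (version 4.0.16, R 4.3.3). Benjamini-Hochberg adjustment ran over all 17606. Standard errors came from the F statistic. Alternatives used DESeq2 1.42.0, limma voom (limma 3.58.1), other scalings and filters, a replicate block and each library left out. The scripts were tested on simulated counts. Depth was 57886524 to 70965999 counts, and 3 counts, taken as the floor, were 0.0339 to 0.0578 CPM. Floors cover counting error only, intervals the modelled variation among libraries, and amplified reads are not independent molecules. Scaled by total counts, each pair of libraries in a group differed by more than counting noise, so each counted once. That difference does not show that the libraries came from separate animals. No batch was given in the sources used here. Transcript lengths for levels per kilobase came from GENCODE vM21 (GRCm38), matched by gene ID for all 29 genes.

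The 29 members and all lists were chosen with earlier results of these data known. Named genes were all members, the called genes of each other list or, with none called, up to 4 with the smallest p, and Atp7b. Cyp4a10, Cyp4a14, Gm44502, the genes called in an alternative and the ratios were chosen after their values were seen.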

Additional observations from a re-analysis of the deposited data

How the results depend on the processing

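The number of genes called over the whole table moved from 253 to 1007 with total counts, 876 when the 20 most abundant genes were left out of those totals, 473 with no filter on low counts, 1867 with DESeq2, 71 with limma voom and 4 with the replicate number as a block (replicate block). It was 0 to 912 with 1 library left out, and DESeq2's size factors (227) and a minimum of 10 counts in 3 libraries (232) left it within 1.5 times. Same-numbered libraries of the labelled groups had correlations of -0.00386, -0.0203 and -0.0457 in their deviations, so the numbers were not taken as pairs. Acad12, called by edgeR, was not called under the block (adjusted p = 0.0748). Members called were 0, and 0 under the block, but 4 with total counts, 1 without the 20 most abundant genes and 0 to 3 with 1 library left out. The mitochondrial median moved from 0.17 to 0.47 with total counts. Over 14 alternatives and 29 genes, 365 of 406 values kept their sign and their side of the threshold, 8 became called, and 33, in 12 genes, changed sign. Ppara became 0.0095 (DESeq2 size factors and DESeq2 test), 0.31 (total counts), 0.014 (no filter and replicate block), 0.29 (20 most abundant genes left out) and 0.020 (voom). With total counts, and then without the 20 most abundant genes, Cpt2 became 0.18 and 0.16, Acadvl 0.043 and 0.016, Acads 0.23 and 0.20, and Acaa2 0.26 and 0.24. With 1 library left out the ranges were -0.19 to 0.13 for Ppara, -0.019 to 0.46 for Slc25a20, -0.21 to 0.054 for Acads, -0.017 to 0.23 for Hadha, -0.24 to 0.067 for Acaa2, -0.049 to 0.59 for Eci1, -0.15 to 0.36 for Eci2, -0.097 to 0.14 for Etfa, -0.059 to 0.25 for Etfdh and -0.092 to 0.34 for Acaa1a. The cause of these changes was not tested. With 3 libraries a group, fold changes of Cpt1b, Pdk4, Fgf21 and Vnn1 are known only within wide intervals.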
